A study of Mus musculus with 4 samples.

Results

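The 6 genes described here encode parts of the macrophage's equipment for binding, digesting and reaching its targets: C1qa and C1qb (complement), Lyz2 (lysozyme), Ctss and Ctsb (cathepsins) and Lcp1 (a leukocyte actin bundler). They were taken by name, with earlier results of these data known, from a deposited table of 1000 genes. All 6 were found in it, with read counts in all 4 libraries. The study measured mRNA (RNA-seq) and ribosome footprints, the mRNA fragments that ribosomes cover, in frozen tibialis anterior, a muscle of the lower leg. The treated mice were Dmd Dup2 animals given the vector scAAV9.U7-ACCA, an AAV9 particle whose genome encodes a modified U7 RNA designed to make splicing skip an exon. The controls were Dmd Dup2 animals labelled untreated. Both groups therefore carry the same allele, in which exon 2 of Dmd is duplicated, and no healthy muscle was used here. Age, sex and the number of animals behind each library are not given in the labels.

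Dystrophin-deficient muscle fibres break down and regenerate repeatedly, and macrophages enter the tissue to clear the debris. C1q opens the classical complement pathway by binding immune complexes and dying cells, and its A and B chains are joined with a C chain in 1 molecule. Lysozyme digests bacterial cell walls, cathepsins cut proteins in lysosomes, and plastin-2 (Lcp1) cross-links actin filaments in leukocytes. In mice macrophages are a main source of C1q, Lyz2 and Ctss, while Ctsb is made by most cell types, muscle fibres included.

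Each group was 1 library, so there is no replicate check and no test between the conditions. Intervals below are 95% counting intervals of single libraries and say nothing of the spread between animals. The listed genes held 4248818 reads in treated and 125236 in untreated mRNA, and 1664122 in treated and 3349015 in untreated footprints. The table is ordered by the untreated mRNA count and ends at 14 reads, so it holds only genes seen in that shallow library. The 6 genes had 15 to 61 reads there, with Lcp1 close to the lower end of the table, and 79 reads or more in each of the other 3 libraries. Genes were listed only where their untreated mRNA count came out high enough. That cut favours lower mRNA ratios and higher footprints per mRNA among genes near the lower end or with low treated mRNA. C1qa, C1qb, Ctss and Lcp1 are such genes, as their treated mRNA levels below show. The size of the effect was not tested. Of 17 macrophage markers, 4 were listed, namely C1qa, C1qb, Lyz2 and Ctss. The other 13, among them Cd68, Adgre1, Csf1r, Cd163, Mrc1 and C1qc, were not in the table, so the label of the group rests on those 4 genes. Of 8 fast muscle fibre markers 7 were listed, with a summed level of 223540 scaled CPM in treated and 192920 in untreated mRNA. Scaled CPM are counts over library size in the usual CPM unit, with library sizes adjusted by TMM, a scaling that aligns the bulk of the listed genes. Scaling by the listed totals instead would put the fast muscle fibre sum of treated mRNA below that of untreated mRNA.

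Start regions are shown because all 6 members were lower in treated footprints and because C1qb, Lyz2 and Ctss share a short stretch near their starts that can be read directly. Whether that stretch bears on the mRNA or footprint values was not tested. RefSeq's promoter table, on build GRCm38.p6, had entries for 4 of the 6 members (C1qb, Lyz2, Ctss and Lcp1, the last with a second start that is not printed). The bases run 5′ to 3′ in the direction of the gene, from 150 before to 10 after the start. Capitals mark AGGAAGT, a core sequence of the ETS family to which the myeloid factor PU.1 belongs, or GGGCGG, the GC box, on either strand. ACTTCCT and CCGCCC are these motifs read on the opposite strand.
C1qb: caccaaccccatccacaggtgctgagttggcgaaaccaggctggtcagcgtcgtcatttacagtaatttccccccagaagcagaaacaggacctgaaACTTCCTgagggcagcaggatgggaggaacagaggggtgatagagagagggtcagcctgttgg
Lyz2: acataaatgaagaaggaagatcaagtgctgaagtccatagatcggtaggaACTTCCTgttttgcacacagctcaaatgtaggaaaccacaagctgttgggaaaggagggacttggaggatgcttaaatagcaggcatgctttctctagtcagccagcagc
Ctss: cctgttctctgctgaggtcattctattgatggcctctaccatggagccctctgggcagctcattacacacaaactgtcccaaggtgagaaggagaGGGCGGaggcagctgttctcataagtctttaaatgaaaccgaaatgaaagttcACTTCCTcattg
Lcp1: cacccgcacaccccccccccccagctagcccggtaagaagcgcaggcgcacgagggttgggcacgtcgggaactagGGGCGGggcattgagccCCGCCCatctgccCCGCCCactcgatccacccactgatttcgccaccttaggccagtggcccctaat
The printed stretches lie at chr4:136886191-136886350 on the minus strand (C1qb), chr10:117282263-117282422 on the minus strand (Lyz2), chr3:95526636-95526795 on the plus strand (Ctss) and chr14:75130973-75131132 on the plus strand (Lcp1). AGGAAGT, searched on both strands in the whole window of 250 bases before to 50 after the start, was found at −53 to −47 in C1qb, at −100 to −94 in Lyz2 and across the start, at −2 to 5, in Ctss. Neither start of Lcp1 held it, and 9.35% of all 32851 windows in the table did. The Ctss match overlaps a match to GAGGAA, another form of the PU.1 site, which 28.3% of windows held. GAGGAA also stood at −164 to −159 in Ctss and at −30 to −25 in C1qb. The main start of Lcp1 held GGGCGG at 4 places, the Ctss window held it once, and 35.7% of windows held it. TATAAA, in 13.6% of windows, matched in Ctss alone, far from the start, and CACGTG, in 7.15%, matched in no member's window. The motifs and the search window were both chosen after the sequences were seen. The first search covered only the 250 bases before the start and missed the Ctss match to AGGAAGT, which crosses it; the window was then widened. Before the start alone AGGAAGT stood in 2 members and in 7.69% of windows. A match of letters is not a binding site.

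In mRNA, 5 of the 6 genes were lower in the treated library and Ctsb was not called. C1qa, C1qb, Ctss and Lcp1 had treated mRNA levels of 31.1, 30.8, 51.5 and 40.3 scaled CPM. With TMM 15 untreated mRNA reads, the Lcp1 count, make 95.7. At equal levels their expected untreated counts fall below the 14 reads at which the table ends. The mRNA calls of these genes are therefore not a result apart from that cut. In footprints all 6 were lower. A gene was called when the treated to untreated ratio differed at least 1.5-fold, its interval excluded 1 and the pair of libraries held at least 50 reads. In mRNA 24.8% of 996 listed genes were called lower by that rule, and in footprints 26.2% of 999. No member was called higher in either assay, whereas 31.8% of all listed genes were in mRNA and 19.9% in footprints. The log2 mRNA ratio of the 6 genes had a median of −2.18 and that of all listed genes past the read minimum 0.06. The log2 footprint ratio had medians of −1.16 for the 6 genes and −0.02 for all. Because the 6 genes were chosen with earlier results of these data known, these contrasts with all listed genes may follow from the choice. In mRNA they may also follow from the cut on untreated mRNA reads. Folds depend on the library scaling, which multiplies the ratios of all genes alike and leaves their ranks as they are. Listed totals multiply each TMM-scaled mRNA ratio given here by 0.635 and the authors' constants by 0.543, against footprint factors of 0.972 and 0.828. Fewer macrophages and less RNA per macrophage cannot be told apart in whole muscle.

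**Figure D1:**
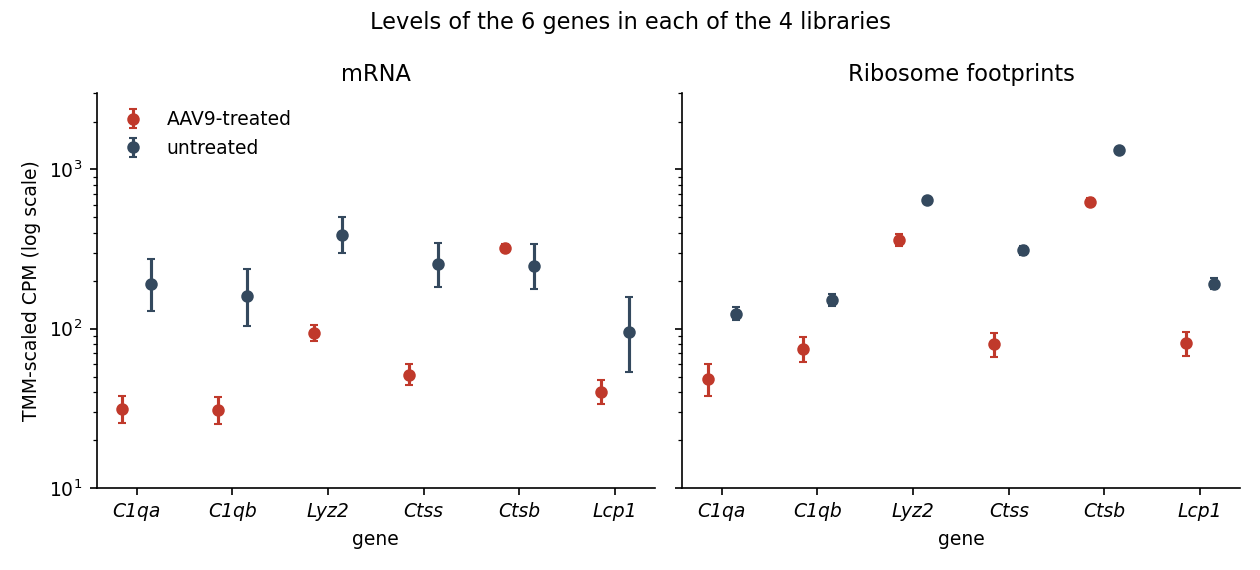
TMM-scaled CPM (log axis) of the 6 genes in mRNA (left panel) and footprints (right panel), with 95% exact Poisson intervals, 1 library per point. Treated points lie below untreated points for every gene in both panels except Ctsb mRNA (321.5 in treated and 248.9 in untreated); levels are not per length, so genes are not to be compared with each other.

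The complement chains had the lowest mRNA ratios of the 6. C1qa (NM_007572) had 105 mRNA reads in the treated library, or 31.1 (25.4 to 37.6) scaled CPM, against 30 reads and 191.5 (129.2 to 273.3) in the untreated library. Its mRNA was thus 6.16-fold lower (3.96 to 9.32), the 34th lowest ratio of the 996 genes. It was 9.69-fold lower (6.23 to 14.7) with listed totals and 11.4-fold lower (7.30 to 17.2) with the authors' constants. C1qa footprints were 79 reads and 48.0 scaled CPM (38.0 to 59.8) in treated muscle, against 423 reads and 124.2 (112.6 to 136.6) in untreated muscle, which is 2.59-fold lower (2.03 to 3.33). Neither pair of intervals overlapped. C1qb (NM_009777) stood at 104 mRNA reads and 30.8 scaled CPM (25.2 to 37.3) in treated muscle, against 25 reads and 159.5 (103.3 to 235.5) in untreated muscle. That is 5.18-fold lower (3.21 to 8.08) with TMM, 8.16-fold lower (5.05 to 12.7) with listed totals and 9.55-fold lower (5.91 to 14.9) with the authors' constants. Its footprints were 123 reads and 74.8 scaled CPM (62.1 to 89.2) in treated and 515 reads and 151.2 (138.4 to 164.9) in untreated muscle, 2.02-fold lower (1.66 to 2.48).

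The proportion between both chains differed by less than counting error. C1qa reads divided by C1qb reads gave 1.01 in treated and 1.2 in untreated mRNA, and 0.642 in treated and 0.821 in untreated footprints. The difference of their log2 ratios was −0.25 (−1.11 to 0.61) in mRNA and −0.35 (−0.80 to 0.09) in footprints, intervals that hold 0. Such a difference between members needs no library scaling.

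Lyz2 (NM_017372), the lysozyme of macrophages, had 318 mRNA reads and 94.1 scaled CPM (84.1 to 105.1) in the treated library, against 61 reads and 389.3 (297.8 to 500.1) in the untreated library. Its mRNA was 4.14-fold lower (3.09 to 5.45) with TMM, 6.51-fold lower (4.86 to 8.58) with listed totals and 7.62-fold lower (5.70 to 10.05) with the authors' constants. Lyz2 footprints were 593 reads and 360.4 scaled CPM (332.0 to 390.7) in treated muscle and 2189 reads and 642.7 (616.1 to 670.2) in untreated muscle, 1.78-fold lower (1.63 to 1.96), the smallest footprint difference of the 6. Lyz1, its near-identical neighbour known from Paneth cells of the mouse gut, had 283 treated and 52 untreated mRNA reads and 444 treated and 1848 untreated footprints. The rule by which reads shared by such copies were assigned is not stated, so the split between Lyz1 and Lyz2 is uncertain.

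The cathepsins differed from each other. Ctss (NM_021281), the lysosomal protease that trims the invariant chain in antigen-presenting cells, had 174 mRNA reads and 51.5 scaled CPM (44.1 to 59.8) in treated muscle, against 40 reads and 255.3 (182.4 to 347.6) in untreated muscle, 4.96-fold lower (3.42 to 7.02). With listed totals Ctss mRNA was 7.80-fold lower (5.39 to 11.1) and with the authors' constants 9.13-fold lower (6.31 to 12.9). Its footprints, 131 reads and 79.6 scaled CPM (66.6 to 94.5) in treated and 1057 reads and 310.3 (291.9 to 329.6) in untreated muscle, were 3.90-fold lower (3.25 to 4.71) and ranked 29th lowest of 999 genes. Ctsb (NM_007798), a broadly expressed lysosomal protease, had 1086 mRNA reads and 321.5 scaled CPM (302.7 to 341.2) in the treated library, against 39 reads and 248.9 (177.0 to 340.2) in the untreated library. These intervals overlap, and the mRNA ratio of 1.29 (0.939 to 1.83) was called neither way. With other scalings it fell on the other side of 1, at 0.821 (0.596 to 1.16) with the listed totals, 0.980 (0.712 to 1.39) with the upper quartile and 0.701 (0.509 to 0.991) with the authors' constants, still without a call, since the last excludes 1 but stays under 1.5-fold. Ctsb footprints were 1030 reads and 626.1 scaled CPM (588.4 to 665.5) in treated muscle and 4514 reads and 1325 (1287 to 1365) in untreated muscle, 2.12-fold lower (1.98 to 2.27).

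Lcp1 (NM_008879) had the fewest untreated mRNA reads of the 6. It held 136 reads and 40.3 scaled CPM (33.8 to 47.6) in treated mRNA, against 15 reads and 95.7 (53.6 to 157.9) in untreated mRNA, 2.38-fold lower (1.30 to 4.06). Lcp1 footprints were 133 reads and 80.8 scaled CPM (67.7 to 95.8) in treated and 653 reads and 191.7 (177.3 to 207.0) in untreated muscle, 2.37-fold lower (1.97 to 2.88). The mRNA and footprint ratios of Lcp1 were 0.421 and 0.422 with TMM, but 0.267 and 0.410 with listed totals and 0.228 and 0.349 with the authors' constants.

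**Figure D2:**
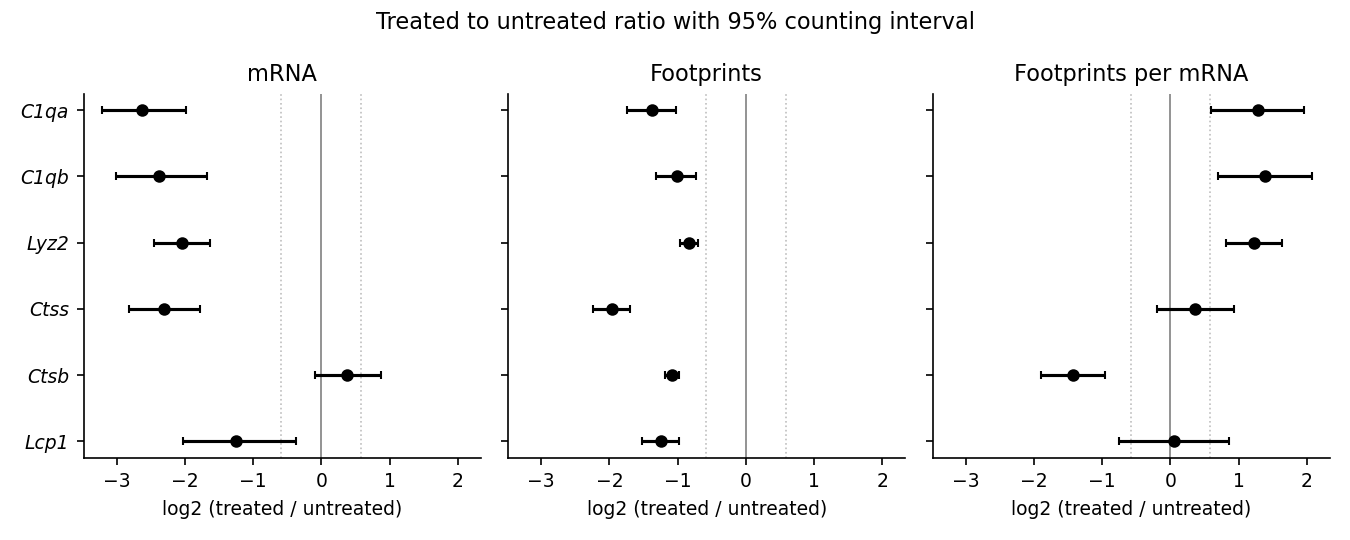
Log2 of the TMM-scaled treated to untreated ratio of the 6 genes in mRNA, footprints and footprints per mRNA, with 95% counting intervals; solid lines mark no difference and dotted lines the 1.5-fold threshold. All 6 footprint intervals lie below 0, whereas the mRNA interval of Ctsb (−0.09 to 0.87) holds it.

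Set against each other, the members split differently in each assay. The log2 ratios of all 15 pairs were compared, each difference with its own 95% interval, not widened for the number of pairs. In mRNA 8 differences excluded 0. They were all 5 pairs with Ctsb and the pairs of Lcp1 with C1qa, C1qb and Ctss. The log2 ratio of C1qa minus that of Ctsb was −2.99 (−3.74 to −2.25), and that of Ctsb minus that of Lcp1 was 1.62 (0.72 to 2.52). Among C1qa, C1qb, Lyz2 and Ctss no mRNA difference excluded 0, and the largest, C1qa minus Lyz2, was −0.57 (−1.28 to 0.13). In footprints 8 differences excluded 0 as well, but these were the 5 pairs with Ctss, which lay below every other member, and the pairs of Lyz2 with C1qa, Ctsb and Lcp1. Ctss footprints lay 1.13 (0.84 to 1.42) log2 units below those of Lyz2, and 0.59 (0.16 to 1.03) below those of C1qa. Ctsb footprints lay 0.07 (−0.23 to 0.37) log2 units below those of C1qb, an interval that holds 0.

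**Figure D3:**
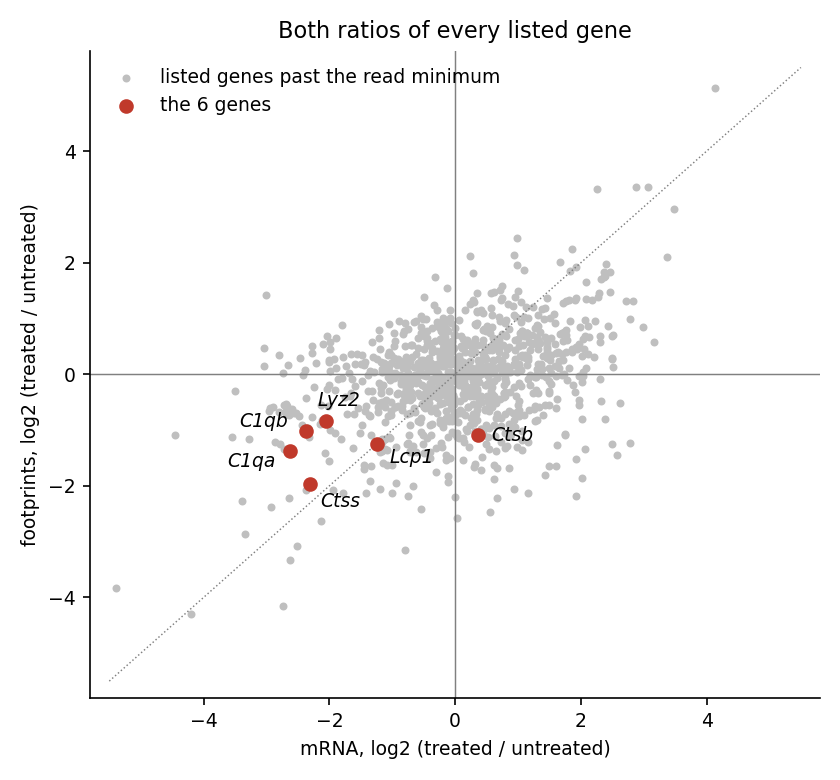
Log2 treated to untreated ratio in footprints (vertical) against mRNA (horizontal) for the listed genes past the read minimum in both pairs; the dotted line marks equal ratios. C1qa, C1qb and Lyz2 lie left of 0 and above the line, Ctss and Lcp1 near it, and Ctsb right of 0 and below it with TMM, the scaling plotted; listed totals and the authors' constants shift all points left and put Ctsb left of 0.

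Footprints per mRNA compare how far footprints and mRNA differed, as the quotient of both ratios. They were called higher in treated muscle for C1qa, C1qb and Lyz2 and lower for Ctsb. The cut on untreated mRNA reads favours higher values for C1qa and C1qb, by an amount that was not tested. Over 995 genes compared, 26% were called higher and 31.9% lower. The values were 2.42 (1.52 to 3.87) for C1qa, 2.61 (1.62 to 4.20) for C1qb and 2.34 (1.75 to 3.11) for Lyz2, against 0.370 (0.268 to 0.512) for Ctsb. With listed totals they were 3.71 (2.32 to 5.92) for C1qa, 3.99 (2.48 to 6.42) for C1qb, 3.57 (2.68 to 4.76) for Lyz2 and 0.567 (0.410 to 0.784) for Ctsb, each 1.53 times the TMM value, and the authors' constants gave the same factor of 1.53. Those of Ctss, 1.29 (0.875 to 1.90), and Lcp1, 1.04 (0.593 to 1.81), had intervals that hold 1 with TMM. The Lcp1 value was 1.58 (0.907 to 2.77) with listed totals, still without a call. Ctss was called higher with the listed totals, at 1.97 (1.34 to 2.90), and likewise with the authors' constants, with the upper quartile, at 1.57 (1.06 to 2.30), and without the most abundant genes, at 1.59 (1.08 to 2.33).

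Within each condition the same quantity can be set against the median listed gene. C1qa had 0.752 footprint reads per mRNA read in treated and 14.1 in untreated muscle, numbers that follow library depth. Relative to the median gene these were 0.64 (0.22 to 1.06) log2 units above in treated and 0.65 below (−0.65, interval −1.18 to −0.12) in untreated muscle. C1qb lay at 1.29 (0.92 to 1.67) in treated and −0.10 (−0.68 to 0.47) in untreated muscle, and Lyz2 at 1.95 (1.75 to 2.15) in treated and 0.71 (0.35 to 1.08) in untreated muscle. Ctsb lay at 0.97 (0.85 to 1.10) in treated and 2.39 (1.94 to 2.85) in untreated muscle, where it was among the genes with the most footprints per mRNA, at rank 981 of 1000 from the lowest. Ctss lay at 0.64 (0.32 to 0.97) in treated and 0.26 (−0.19 to 0.72) in untreated muscle, and Lcp1 at 1.02 (0.67 to 1.36) in treated and 0.96 (0.23 to 1.68) in untreated muscle. In treated muscle all 6 genes thus lay above the median gene. In untreated muscle Lyz2, Ctsb and Lcp1 did so with intervals above 0, C1qa lay below it, and C1qb and Ctss had intervals that hold 0.

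**Figure D4:**
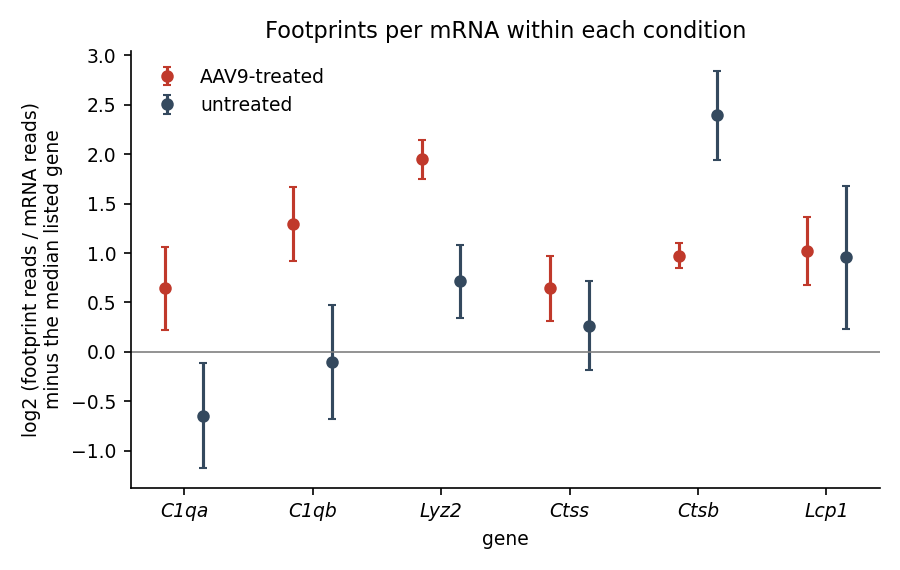
Log2 of footprint reads over mRNA reads of each gene within treated and untreated muscle, minus the median of the 1000 listed genes, with 95% counting intervals. C1qa, C1qb and Lyz2 are higher in treated muscle, Ctsb is lower (0.97 in treated and 2.39 in untreated), and the intervals of Ctss and Lcp1 overlap.

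Other genes of the same systems were counted from 4 lists. Of 42 other macrophage and myeloid symbols 2 were listed, Lyz1 and Apoe, and both were called lower in mRNA and in footprints. Over all listed genes 24.8% were called lower in mRNA and 26.2% in footprints. The cut on untreated mRNA reads favours lower mRNA ratios among the symbols that were listed, so these calls may follow from it. Lyz1 may share reads with Lyz2, so its values may not be separate from those of Lyz2. Apoe, the lipid carrier that macrophages secrete, had 584 mRNA reads in treated and 104 in untreated muscle, a ratio of 0.260 (0.211 to 0.324), and 1200 treated and 10485 untreated footprints, a ratio of 0.237 (0.223 to 0.252). Of 25 other complement genes none was in the table. None of 7 neutrophil, 10 T and B cell, 5 endothelial, 4 satellite cell and myoblast and 7 red blood cell markers was in it either.

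Other lysosomal genes were mixed. Of 46 other cathepsin and lysosome genes 11 were listed. With TMM 0 were called lower and 3 higher in mRNA, while 4 were lower and 0 higher in footprints. Over all listed genes the TMM shares were 24.8% lower and 31.8% higher in mRNA, and 26.2% lower and 19.9% higher in footprints. With the authors' constants 5 were lower and 2 higher in mRNA, and 4 lower and 0 higher in footprints. Without the most abundant genes in the library totals, 3 were lower and 1 higher in footprints. Lamp1, a lysosomal membrane protein, was 3.36-fold higher (2.32 to 5.07) in treated mRNA with a footprint ratio of 0.469 (0.414 to 0.531). Gaa, the acid glucosidase that breaks down lysosomal glycogen, was 3.14-fold higher (1.98 to 5.31) in mRNA, and its footprint ratio of 1.17 (1.05 to 1.31) was called neither way. Cst3, the secreted cathepsin inhibitor cystatin C, was 2.39-fold higher (1.55 to 3.87) in mRNA with TMM, and was called neither way with the listed totals, at a log2 ratio of 0.60, and with the authors' constants, at 0.37. Lgmn, the asparaginyl protease legumain, had footprints at 0.453 (0.394 to 0.518) and Cd63, a tetraspanin of lysosomes, at 0.460 (0.394 to 0.534), with mRNA ratios of 0.733 (0.467 to 1.22) and 0.920 (0.581 to 1.55). The fourth gene with lower footprints was Scarb2, a lysosomal membrane receptor, at 0.644 (0.564 to 0.734). Ctsd, an aspartic cathepsin, had 1611 treated and 3332 untreated footprints, a ratio of 1.00 (0.943 to 1.06), and Ctsl had a ratio of 1.39 (1.27 to 1.52).

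Among 33 other genes of leukocyte actin and signalling 7 were listed, and 5 of them were called lower and 0 higher in mRNA. At equal TMM-scaled levels the expected untreated mRNA counts of these 5 fall below the 14 reads at which the table ends. The cut on untreated mRNA reads thus favours these calls, and the 5 of 7 is not a result apart from it. In footprints 2 were lower and 0 higher. Over all listed genes 24.8% were called lower in mRNA and 26.2% in footprints, so the 2 of 7 in footprints are near the share of all genes. With the authors' constants 7 were lower in mRNA and 3 in footprints, and without the most abundant genes in the totals 1, Tmsb4x, was higher in footprints. Cfl1, which severs actin filaments, had an mRNA ratio of 0.197 (0.136 to 0.294) and a footprint ratio of 0.512 (0.429 to 0.609). Pfn1, an actin monomer binder, had 0.445 (0.294 to 0.702) in mRNA and 0.433 (0.359 to 0.520) in footprints. Tmsb4x, a thymosin that holds actin monomers, was lower in mRNA at 0.234 (0.156 to 0.361), with a footprint ratio of 1.46 (1.28 to 1.68). Msn, which ties actin to the membrane, stood at 0.266 (0.188 to 0.386) in mRNA and 0.823 (0.732 to 0.924) in footprints, and Arpc3, a subunit of the actin-branching Arp complex, at 0.249 (0.145 to 0.456) in mRNA and 0.878 (0.701 to 1.09) in footprints. These genes are expressed in many cell types besides leukocytes.

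**Figure D5:**
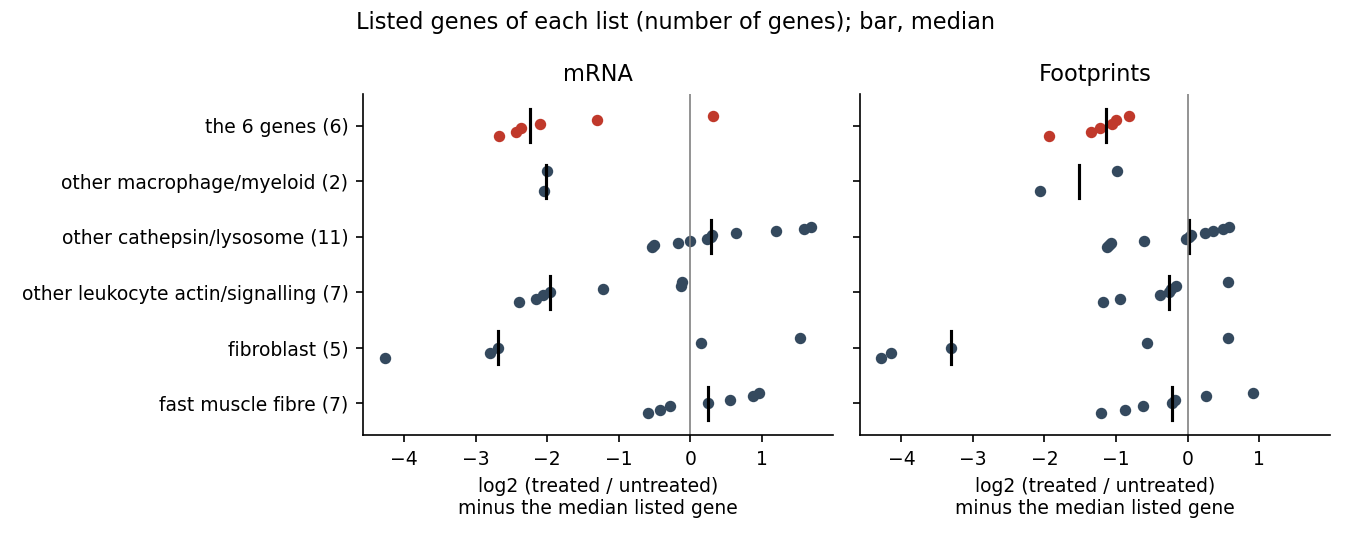
Log2 treated to untreated ratio minus the median listed gene for each listed gene of 6 lists (number of genes in brackets), in mRNA and footprints; the bar is the list's median. The median of the 6 genes is −2.24 in mRNA and −1.14 in footprints, and that of the other cathepsin and lysosome genes 0.29 and 0.02.

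The 3 collagens among the fibroblast markers were lower in treated muscle as well, whereas Dcn was not. Col1a1, Col1a2 and Col3a1, fibrillar collagen chains, had mRNA ratios of 0.0542 (0.0495 to 0.0593), 0.162 (0.146 to 0.179) and 0.149 (0.139 to 0.160). Their footprint ratios were 0.0508, 0.0998 and 0.0560. Dcn, the matrix proteoglycan decorin, had an mRNA ratio of 3.02 (2.35 to 3.95) and a footprint ratio of 1.46. The mRNA ratio of Lum, at 1.16 (0.764 to 1.84), was called neither way. Lum footprints were called lower with TMM, at 0.665 (0.607 to 0.728). The summed level of the fibroblast markers was 3227 scaled CPM in treated and 16351 in untreated mRNA, and 5029 in treated and 23657 in untreated footprints. Of 6 markers 5 were listed, of which 3 were called lower and 1 higher in mRNA, and 4 lower and 0 higher in footprints. The 4 listed macrophage markers summed to 207.5 in treated and 995.6 in untreated mRNA, and to 562.9 in treated and 1228 in untreated footprints. The cut on untreated mRNA reads favours a lower treated sum in mRNA. Of 7 listed fast muscle fibre markers 0 were lower and 3 higher in mRNA with TMM, but 3 lower and 0 higher with the authors' constants. In footprints 3 were lower and 1 higher with both. With TMM 24.8% of all listed genes were lower and 31.8% higher in mRNA, and 26.2% lower and 19.9% higher in footprints. The part of a shift in the share of cell types in the 6 genes' values was not tested.

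The genes whose 2 ratios lay nearest to the member medians were found among 989 non-members by the distance between a gene's mRNA and footprint log2 ratios and the members' medians, over the 4 libraries. In order they were Eno1 at 0.15 log2 units, Gm5506 at 0.23, Lyz1 at 0.25, Cfl1 at 0.26 and Actn2 at 0.27. Actn2 encodes an alpha-actinin of the muscle Z-disc. Eno1 and Gm5506 are a glycolytic enolase and its near-identical retrotransposed copy, so their counts may share reads. Eno1 had a ratio of 0.200 (0.153 to 0.263) in mRNA and 0.458 (0.417 to 0.502) in footprints. Of the members themselves C1qb lay closest to the medians, at 0.24, and Ctsb farthest, at 2.55.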

How the data were processed

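The deposited table gives, per the file headers, a read count and a normalized read count per gene and library. Within 0.1, 100% of the deposited normalized values were the read count multiplied by a constant of the library, so they were read as CPM, a unit inferred from the values. Trimmomatic, STAR, edgeR and mm9 appear in the submitters' processing notes, with no role given. Which tool counted the reads, its strand setting and its handling of multi-mapping reads are not stated.

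The raw counts were analysed. TMM scaling (edgeR 4.0.16, R 4.3.3) was computed over all 1000 genes and 4 libraries. Treated to untreated ratios have exact conditional binomial 95% intervals. Footprints per mRNA had 0.5 added to each count and a normal interval on the log scale. Calls used 1.5-fold, an interval excluding 1 and 50 summed reads per pair (for footprints per mRNA, in each pair). No test or p-value is given, since each group is 1 library. The calculation was tested on simulated counts with counting error only. They held no spread between animals and no cut on the untreated mRNA count, so that check does not cover either. Alternatives were DESeq2 1.42.0 size factors, listed totals, the upper quartile, totals without the 20 most abundant genes of each library, the authors' constants, no minimum or 200 reads, a 2-fold threshold and 5 added to each count. Sequences came from RefSeq tables on GRCm38.p6, matched by symbol, and identifiers of all 6 genes were found there. Reads carry no molecular identifiers, so intervals cover counting error only. No transcript lengths were used, so levels are not compared between genes. Members and lists were chosen with earlier results of these data known. Named were the 6 members, genes of 4 lists called in mRNA or footprints, and the 5 nearest genes; Ctsd and Ctsl fall outside that rule and were chosen after their values were seen.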

Additional observations from a re-analysis of the deposited data

How the results depend on the processing

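The count of members called lower, 5 in mRNA and 6 in footprints, was the same under each of the 5 other scalings and with no read minimum. With a 2-fold threshold it was 5 in both. With a minimum of 200 reads only 3 members were left in mRNA, of which 2 were lower, and in footprints per mRNA 1 was then higher; fewer genes tested is the construction of that setting. Scaling moved the median log2 mRNA ratio of all listed genes from 0.06 with TMM to −0.19 when the most abundant genes were left out of the totals, −0.34 by upper quartile, −0.60 by listed totals and −0.82 by the authors' constants. Genes called higher made up 43.7%, 35.7%, 24.2% and 16.8% of mRNA calls in those 4 settings, against 56.2% with TMM. The members' median relative to the median listed gene, −2.24 in mRNA and −1.14 in footprints, cannot move with scaling by its construction, so it says nothing of stability. No called value of a member, of a listed gene of the 4 related lists or of a nearest gene changed direction under the other scalings or the larger added count. Values without a call did. Ctsb mRNA was the 1 member value to cross a ratio of 1, and among 23 other named or listed genes 5 mRNA values (Atp6ap1, Ctsl, Laptm4a, Psap and Scarb2), 4 footprint values (Ctsd, Gaa, Laptm4a and Psap) and 7 values of footprints per mRNA crossed it. Among those 23 genes another scaling ended the call of 1 gene in mRNA, 1 in footprints and 3 in footprints per mRNA, and gave a call to 7, 3 and 2 more; among the members it gave 1, to Ctss in footprints per mRNA, and ended 0. The cause was not tested. No paired analysis was possible because each group holds 1 library, and for the same reason no library could be left out. The untreated mRNA library limits the precision: its 15 to 61 reads per member set most of the width of the mRNA intervals.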
